A study of Rattus norvegicus with 9 samples.

Results

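Livers of male Sprague-Dawley rats were read for 10 genes of T and natural killer (NK) cells: *Cd3d*, *Cd3e*, *Cd3g*, *Cd8a*, *Cd2*, *Cd5*, *Lck*, *Prf1*, *Gzmb* and *Klrd1*. They were chosen by symbol, out of 16292 genes named for the probe sets of an Affymetrix rat expression array, and all 10 were found. Carbon tetrachloride (CCl4), a hepatotoxin used to induce liver fibrosis, was given intraperitoneally in olive oil for 8 weeks. The CCl4+Rot rats received CCl4 and also rottlerin, an activator of large-conductance potassium (BK) channels, at 2.5 mg/kg intraperitoneally 2 weeks after the first CCl4 injection. The CCl4 schedule is described for the CCl4 group only, and how often rottlerin was given is not stated. The control rats received vehicle, whose composition is not given in the sources used here, and no vehicle for rottlerin is described for the CCl4 rats. Each group holds 3 arrays, 1 per rat: vehicle replicates 3, 4 and 5, CCl4 replicates 1, 2 and 3, and CCl4+Rot replicates 4, 5 and 6. Signals are on a log2 scale, and a detection call marks each probe set on each array as present, marginal or absent. Where several probe sets named a gene, the brightest on average stood for it, and only calls of present were counted as detection.

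T cells recognise peptides through an antigen receptor whose signal passes into the cell through the CD3 chains and the kinase Lck. CD8 T cells and NK cells kill target cells by releasing granules, in which perforin opens the target membrane and granzymes enter to start cell death. The normal liver is rich in NK cells, and lymphocytes take part in the inflammation of chronic liver injury. These cells are a minority of a liver sample, and in whole-tissue RNA fewer cells of a type and less RNA per cell cannot be told apart.

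The lymphocyte genes were read near the limit of detection. Of the 10 genes, 4 (*Cd3d*, *Cd8a*, *Cd2* and *Lck*) were called present on no array, or 40.0%, against 24.7% of all 16292 genes, and only *Klrd1* was called present on all 9. In vehicle rats 5, 4 and 2 of the 10 genes were detected in replicates 3, 4 and 5. In CCl4 rats 2, 3 and 3 were detected in replicates 1, 2 and 3. In CCl4+Rot rats 6, 5 and 5 were detected in replicates 4, 5 and 6, so that every CCl4+Rot liver had more of the genes detected than any CCl4 liver, while CCl4+Rot and vehicle met at 5. Over the whole array the CCl4+Rot rats did not have more detection than CCl4 replicates 1 and 2: 16337 to 16612 probe sets were present in CCl4+Rot, and 16681 and 16849 in those CCl4 livers.

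**Figure D1:**
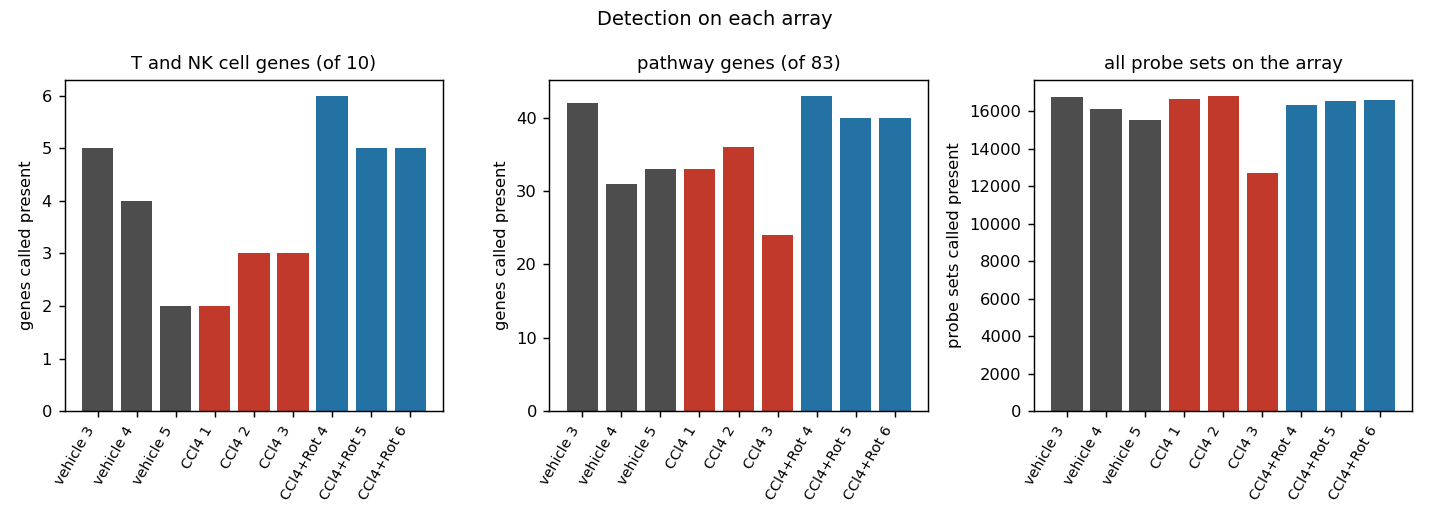
Number of genes or probe sets called present on each of the 9 arrays, 1 bar per rat, with vehicle in grey, CCl4 in red and CCl4+Rot in blue. The left panel counts the 10 T and NK cell genes, the middle panel the 83 listed pathway genes and the right panel all 31042 probe sets. CCl4+Rot bars stand above the CCl4 bars in the left and middle panels, and CCl4 replicate 3 is lowest in the right panel.

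One array stood apart. CCl4 replicate 3 had 12714 probe sets called present, against 15550 to 16849 on the other arrays, and its median signal over all probe sets was 7.81 against 6.79 to 7.01. Over the 9830 probe sets absent on every array its median was 5.64, against 4.06 to 4.56 on the others, so dim transcripts read high on it. It gave the highest of the 9 signals for 7 of the 10 genes, and for 37.8% of all genes. Its part in each result was not tested beyond the values without it that follow. The tissue label was borne out in that all 8 hepatocyte markers were present on all 9 arrays, with *Serpina1* the brightest at a mean of 15.12.

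Of the chains that carry the T cell receptor signal, *Cd3g* was the best detected. *Cd3g* (probe set 1384787_at, chromosome 8) had log2 signals of 6.89, 6.36 and 6.94 in vehicle, 6.81, 7.41 and 7.60 in CCl4 and 7.75, 7.19 and 7.68 in CCl4+Rot, and was called present in 1, 2 and 3 of the 3 livers. All CCl4+Rot livers lay above all vehicle livers, and the CCl4 livers overlapped with both. CCl4+Rot exceeded vehicle by 0.81 ± 0.29 on the log2 scale (SE, n = 3 and 3; 1.75-fold), with an unadjusted p of 0.0239 and an adjusted p of 0.49 (limma, Benjamini-Hochberg over 31042 probe sets), so the change was not called. CCl4 differed from vehicle by 0.54 ± 0.29 (adjusted p = 0.48) and CCl4+Rot from CCl4 by 0.27 ± 0.29 (adjusted p = 0.83, limma). The last difference was 0.43 without CCl4 replicate 3.

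*Cd3e*, the epsilon chain found in every T cell receptor complex, was detected in 1 liver of each group. Its signals were 6.30, 5.91 and 6.55 in vehicle, 5.22, 6.57 and 8.39 in CCl4 and 6.07, 4.05 and 5.84 in CCl4+Rot (probe set 1389997_at, chromosome 8). The highest value, 8.39, was that of CCl4 replicate 3, and all 3 groups overlapped. CCl4 minus vehicle was 0.47 with that array and -0.36 without it, and CCl4+Rot minus CCl4 was -1.40 with it and -0.57 without it (adjusted p = 0.77 and 0.92, limma). The other *Cd3e* probe set, 1379791_at, was absent on all arrays and differed from the first in direction: its signals were 5.65, 4.10 and 5.37 in vehicle and 6.59, 6.18 and 6.20 in CCl4+Rot, where the first probe set had read lower.

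*Cd3d*, which encodes the delta chain, was absent on all 9 arrays, with signals from 2.35 to 6.49, and is given no fold. Its signals spread over more than those of the other members within the vehicle group, 2.35, 2.98 and 5.69. *Cd3g* and *Cd3d* are neighbours that are read in opposite directions, with start sites 1601 bases apart in the rat RefSeq annotation (GRCr8). Their promoters are shown because the 2 genes lie side by side and only *Cd3g* was detected. Each window runs from 250 bases before to 50 after the start site. Capitals mark matches on either strand to AGGAAG, a core letter string of ETS factors held by 34.5% of 33469 RefSeq promoters of this length, to TGTGGT, that of RUNX factors (17.3%), and to TTCNNNGAA, the palindrome of STAT factors (8.87%), and matches to different strings may overlap. The *Cd3g* window (chr8:54183869-54184168, minus strand) holds 1 AGGAAG match, and the *Cd3d* window (chr8:54185269-54185568, plus strand) holds 1 AGGAAG and 1 TTCNNNGAA match, which lie next to each other.
Cd3g: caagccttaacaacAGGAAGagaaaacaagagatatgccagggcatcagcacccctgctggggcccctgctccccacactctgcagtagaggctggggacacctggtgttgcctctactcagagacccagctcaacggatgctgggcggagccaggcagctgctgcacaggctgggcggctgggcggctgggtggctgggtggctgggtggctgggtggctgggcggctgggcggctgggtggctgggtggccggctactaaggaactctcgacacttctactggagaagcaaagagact
Cd3d: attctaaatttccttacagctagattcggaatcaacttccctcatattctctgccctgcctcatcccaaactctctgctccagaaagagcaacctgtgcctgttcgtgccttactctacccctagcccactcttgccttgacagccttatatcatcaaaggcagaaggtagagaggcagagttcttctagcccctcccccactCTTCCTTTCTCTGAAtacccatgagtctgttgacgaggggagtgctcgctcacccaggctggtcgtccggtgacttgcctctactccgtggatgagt

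The co-receptor and adhesion genes were mostly undetected. *Cd8a*, the alpha chain of the co-receptor of cytotoxic T cells (1385414_at, chromosome 4), was called present on no array and marginal in CCl4 replicate 2 and CCl4+Rot replicate 4. Its signals were 6.34, 6.14 and 6.49 in vehicle, 5.99, 7.09 and 7.16 in CCl4 and 7.13, 6.98 and 6.23 in CCl4+Rot, and the groups overlapped. Its other 2 probe sets were absent throughout. *Cd2*, an adhesion receptor of T and NK cells (1369190_at, chromosome 2), was absent throughout at 4.73 to 7.35, with the highest value in CCl4 replicate 3. *Lck*, the kinase that phosphorylates the CD3 chains (1383320_at, chromosome 5), was absent throughout at 7.18 to 8.91, again highest in CCl4 replicate 3. No fold is given for these genes.

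*Cd5*, a surface receptor that dampens T cell receptor signalling, was present in all livers but CCl4 replicate 1. Its signals were 5.46, 5.81 and 6.63 in vehicle, 4.73, 6.24 and 7.36 in CCl4 and 6.86, 6.34 and 6.09 in CCl4+Rot (1369025_at, chromosome 1). The groups overlapped, and CCl4 held both the lowest and the highest liver. The differences were 0.14 ± 0.65 for CCl4 minus vehicle, 0.32 ± 0.65 for CCl4+Rot minus CCl4 and 0.46 ± 0.65 for CCl4+Rot minus vehicle (SE; adjusted p = 0.94, 0.91 and 0.95, limma). The first turned to -0.49 and the second was 0.95 without CCl4 replicate 3. This probe set also names LOC100911215, so the share of *Cd5* in its signal is uncertain.

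The killing genes had a different arrangement of detection. *Prf1*, which encodes perforin, had signals of 8.06, 7.60 and 7.55 in vehicle, 6.48, 7.63 and 5.62 in CCl4 and 8.23, 8.58 and 7.46 in CCl4+Rot (1370096_at, chromosome 20). It was called present in 1 vehicle liver, in no CCl4 liver and in all 3 CCl4+Rot livers. In CCl4 replicate 3, where most members read high, *Prf1* had its lowest signal of all arrays. The CCl4 livers were the lowest except replicate 2, which at 7.63 lay among the vehicle livers and above CCl4+Rot replicate 6, so that the groups overlapped in each comparison.

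Because *Prf1* was not detected in CCl4, its differences from that group are given as bounds. All its CCl4 signals lay above the lowest signal called present on their arrays. Each bound thus equals the ratio from the mean log2 signals and is not a minimum, as it leaves out the spread between livers. *Prf1* was 2.23-fold higher in vehicle than in CCl4 (log2 difference of CCl4 minus vehicle -1.16 ± 0.52, 95% confidence interval -2.37 to 0.05, unadjusted p = 0.058, adjusted p = 0.42, limma). It was 2.85-fold higher in CCl4+Rot than in CCl4 (log2 difference 1.51 ± 0.52, 95% confidence interval 0.3 to 2.72, unadjusted p = 0.0208, adjusted p = 0.72, limma). The bounds were 1.6-fold and 2.04-fold when CCl4 replicate 3 was left out. CCl4+Rot and vehicle differed by 0.35 ± 0.52 (adjusted p = 0.95, limma; 95% confidence interval -0.86 to 1.56). None of these was called.

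*Gzmb*, which encodes granzyme B, the protease that perforin admits into target cells, was detected in 2 vehicle livers, in no CCl4 liver and in all 3 CCl4+Rot livers. Its signals were 6.74, 6.09 and 6.54 in vehicle, 5.19, 5.77 and 8.16 in CCl4 and 7.24, 7.73 and 6.25 in CCl4+Rot (1370628_at, chromosome 15). CCl4 replicate 3 had the highest signal of all 9 livers although the call was absent, and CCl4 replicates 1 and 2 had the lowest. As a bound with all arrays, *Gzmb* was 1.63-fold higher in CCl4+Rot than in CCl4 (adjusted p = 0.83, limma). It was 1.06-fold higher in vehicle than in CCl4 (adjusted p = 0.97, limma). All its CCl4 signals lay above the lowest signal called present on their arrays. Each bound thus equals the ratio from the mean log2 signals and is not a minimum. The limma confidence intervals ran from -1.06 to 2.46 for CCl4+Rot minus CCl4 and from -1.85 to 1.68 for CCl4 minus vehicle. Without CCl4 replicate 3 the bounds were 3.01-fold and 1.97-fold, and leaving out CCl4 replicate 1 instead took the former to 1.08-fold. The measured difference between CCl4 and vehicle, -0.08, turned to 0.51 without CCl4 replicate 1, 0.21 without CCl4 replicate 2 and 0.06 without vehicle replicate 3, so its direction was not settled.

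A dimmer *Gzmb* probe set, 1379794_at, had the same numbers of present calls. Its signals were 5.65, 5.30 and 5.46 in vehicle, 4.47, 1.97 and 5.23 in CCl4 and 6.12, 6.85 and 5.45 in CCl4+Rot. On this probe set every CCl4 liver, replicate 3 included, lay below every liver of the other groups. CCl4+Rot was higher than CCl4 by a bound of 3.33-fold (log2 difference 2.25, unadjusted p = 0.0224, adjusted p = 0.72, limma). The remaining probe set, 1371126_x_at, was present in 2 CCl4+Rot livers only and went the other way. Its signals were 3.27, 4.73 and 4.78 in vehicle, 3.51, 4.50 and 7.37 in CCl4 and 5.29, 5.42 and 1.45 in CCl4+Rot, with log2 differences of 0.87 for CCl4 minus vehicle and -1.08 for CCl4+Rot minus CCl4 (adjusted p = 0.81 and 0.85, limma). The first 2 probe sets also name *Gzmbl2* and the remaining one *Gzmbl3*, close relatives of *Gzmb*, so which of these genes gave the signal is uncertain.

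The promoters of *Prf1* and *Gzmb* are shown because both genes were called present in no CCl4 liver and in every CCl4+Rot liver. The *Prf1* window (GRCr8, chr20:29788790-29789089, plus strand) holds 1 TGTGGT and 3 AGGAAG matches. The *Gzmb* window (GRCr8, chr15:34462420-34462719, minus strand) holds 3 TGTGGT matches, 1 TTCNNNGAA match and 1 AGGAAG match, marked by capitals as above, and a match is a string of letters and not a measured site. Sequences are from RefSeq, in which 9 of the 10 genes had a promoter window.
Prf1: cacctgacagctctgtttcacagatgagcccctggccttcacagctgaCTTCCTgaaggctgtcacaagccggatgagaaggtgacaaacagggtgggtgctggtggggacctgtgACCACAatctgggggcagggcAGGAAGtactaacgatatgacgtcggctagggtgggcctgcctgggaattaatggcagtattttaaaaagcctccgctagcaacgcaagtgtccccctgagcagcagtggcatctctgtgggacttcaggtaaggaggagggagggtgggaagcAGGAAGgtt
Gzmb: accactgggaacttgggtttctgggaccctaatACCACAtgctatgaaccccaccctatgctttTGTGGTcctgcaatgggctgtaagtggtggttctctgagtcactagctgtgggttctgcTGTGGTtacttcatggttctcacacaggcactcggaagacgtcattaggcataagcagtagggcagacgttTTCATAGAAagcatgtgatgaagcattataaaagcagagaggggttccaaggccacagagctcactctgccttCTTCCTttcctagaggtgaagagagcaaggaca

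*Klrd1* encodes CD94, the partner chain of the NKG2 receptors on NK cells and some T cells, and was detected in all 9 livers. Its signals were 6.98, 6.03 and 6.33 in vehicle, 5.83, 5.85 and 7.15 in CCl4 and 6.34, 6.29 and 6.19 in CCl4+Rot (1369306_at, chromosome 4). The CCl4+Rot livers lay close together, and CCl4 replicate 3 was the highest of all. CCl4+Rot differed from CCl4 by 0.00 (95% confidence interval -0.93 to 0.93) and from vehicle by -0.17 (-1.10 to 0.76), and CCl4 differed from vehicle by -0.17 (-1.10 to 0.76), with adjusted p from 0.88 to 0.999 (limma). Without CCl4 replicate 3 the remaining CCl4 livers lay below every liver of both other groups, and CCl4 minus vehicle was -0.61 (adjusted p = 0.47, limma).

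**Figure D2:**
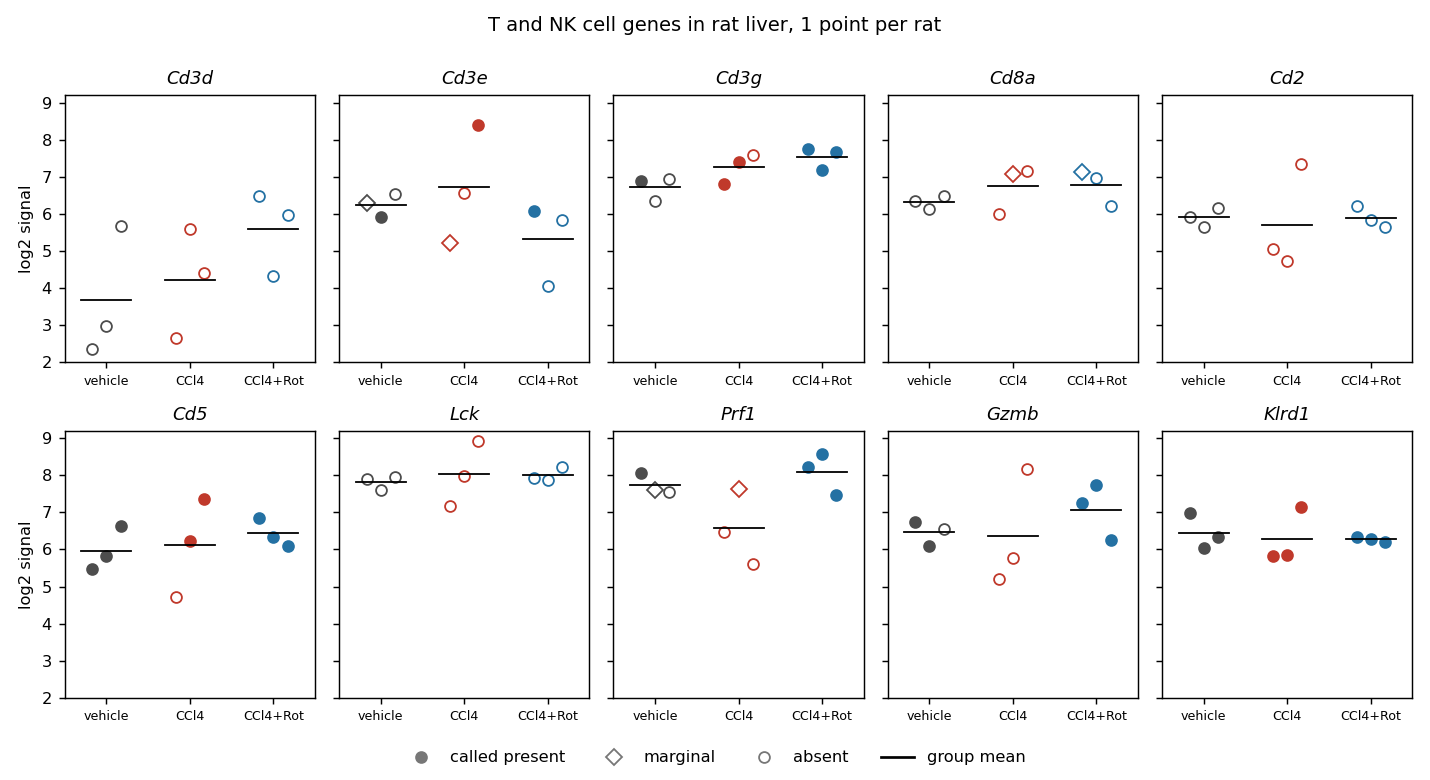
Log2 signal of the 10 genes on each array, 1 point per rat, by group. Filled points were called present, diamonds marginal and open circles absent, and lines are group means (n = 3). *Prf1* and *Gzmb* have only filled points in CCl4+Rot and none in CCl4, and *Cd3g* in CCl4+Rot lies above vehicle at 7.19 to 7.75 against 6.36 to 6.94.

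**Figure D3:**
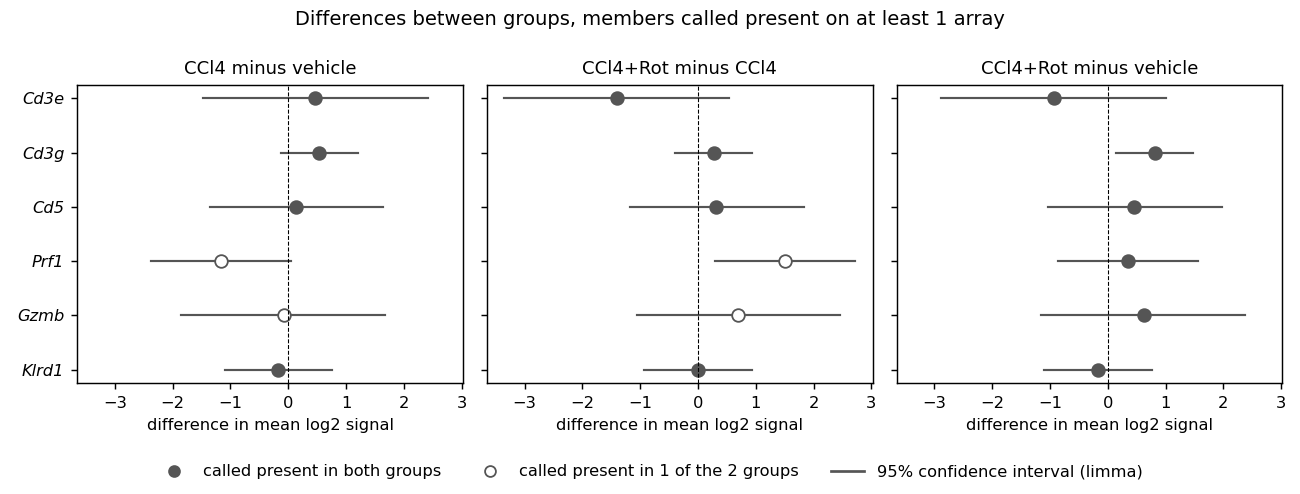
Differences in mean log2 signal between groups for the 6 genes called present on at least 1 array, with 95% confidence intervals from limma (n = 3 and 3). Open points mark genes detected in only one of the groups compared, for which the text gives bounds. Intervals leave out 0 only for *Prf1* in CCl4+Rot minus CCl4 and for *Cd3g* in CCl4+Rot minus vehicle, before adjustment.

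No member was called in any comparison at an adjusted p below 0.05 and 1.5-fold. Over all probe sets the called share was 0% for CCl4 minus vehicle (0 of 31042), 0.00322% for CCl4+Rot minus CCl4 (1 probe set) and 0.0258% for CCl4+Rot minus vehicle (8 probe sets). At an unadjusted p below 0.05 the members counted were 0 of 10 for CCl4 minus vehicle, 1 of 10 (*Prf1*) for CCl4+Rot minus CCl4 and 1 of 10 (*Cd3g*) for CCl4+Rot minus vehicle, against 13.4%, 5.43% and 9.65% of all genes. On the same signals the methods' t-test gave 0 probe sets for CCl4 minus vehicle at these thresholds after Benjamini-Hochberg adjustment, and 1774 with its unadjusted p. With 3 livers against 3, an exact permutation test cannot give a two-sided p below 0.1. The 3 comparisons share their arrays in pairs and are not independent.

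Few members had groups that did not overlap. For CCl4 against vehicle, 0 of 10 had all CCl4 livers higher (12.1% of all genes) and 0 of 10 had all lower (8.45%). For CCl4+Rot against CCl4, 0 of 10 were wholly higher (5.48%) and 0 of 10 wholly lower (5.51%). For CCl4+Rot against vehicle, 1 of 10, *Cd3g*, was wholly higher (15.9%) and 0 of 10 wholly lower (9.44%). Without CCl4 replicate 3, *Cd2*, *Gzmb* and *Klrd1* were wholly lower in CCl4 than in vehicle (3 of 10, against 14.9% of all genes) and wholly higher in CCl4+Rot than in CCl4 (3 of 10, against 12.2%). *Cd2* was detected on no array.

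The median log2 difference of the 10 members was 0.18 for CCl4 minus vehicle (0.13 over all genes), 0.22 for CCl4+Rot minus CCl4 (-0.05 over all genes) and 0.40 for CCl4+Rot minus vehicle (0.03 over all genes). Without CCl4 replicate 3 the first was -0.42 and the second 0.69, with 0.04 and 0.01 over all genes. The sign of the members' median for CCl4 against vehicle thus rested on that 1 array. These medians include the 4 undetected genes.

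The wider T and NK pathways were read through 4 lists with 105 genes, of which 83 besides the members were measured and 32 were called present on no array. *Gzmbl2* among them is read by the probe set of *Gzmb*. None of the 83 was called in any comparison, and at an unadjusted p below 0.05 there were 12 for CCl4 minus vehicle (7 higher, 5 lower; 14.5% of the lists), 10 for CCl4+Rot minus CCl4 (8 higher, 2 lower; 12.0%) and 11 for CCl4+Rot minus vehicle (9 higher, 2 lower; 13.3%), beside the shares of all genes given above. Of the 83, 42, 31 and 33 were detected in the vehicle livers, 33, 36 and 24 in the CCl4 livers and 43, 40 and 40 in the CCl4+Rot livers. As with the members, all CCl4+Rot livers had more of them detected than all CCl4 livers, and vehicle replicate 3 lay among the former.

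All CCl4+Rot livers lay above all vehicle livers for 25 of the 83 pathway genes, or 30.1%, against 15.9% of all genes, and below for 3. This comparison uses no CCl4 array. Of the 25, 8 were present on no array and 8 on all arrays. They include the receptor adaptors *Fyb* and *Lcp2*, the transcription factors *Eomes* and *Tcf7*, the cytokine receptor chain *Il2rg*, and the granule genes *Nkg7*, *Srgn* and *Stxbp2*, several of which other leukocytes also express. Between CCl4 and vehicle 8 were wholly higher (12.1% of all genes) and 4 wholly lower in CCl4 (8.45% of all genes), and between CCl4+Rot and CCl4 10 were wholly higher (5.48%) and 2 wholly lower in CCl4+Rot (5.51%). When CCl4 replicate 3 was left out the former became 9 higher and 12 lower (18.7% and 14.9% of all genes) and the latter 21 higher and 4 lower (12.2% and 11.6%), so the balance between CCl4 and vehicle turned with that array.

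Among the 25 measured genes of T cell receptor signalling, 7 were present on no array, including *Cd4*, *Cd8b* and *Cd28*. *Zap70*, the kinase that docks on the phosphorylated CD3 chains, had signals of 6.21, 5.98 and 6.68 in vehicle, 6.58, 7.20 and 7.75 in CCl4 and 6.94, 6.94 and 6.23 in CCl4+Rot. Its difference between CCl4 and vehicle was 0.89 (unadjusted p = 0.0406, limma), with overlap. It was 0.6 without CCl4 replicate 3, where *Zap70* was called absent at 7.75. *Fyb*, an adaptor that links the receptor to adhesion, was 9.40, 8.74 and 9.15 in vehicle and 9.84, 9.59 and 10.68 in CCl4+Rot, a difference of 0.94 (unadjusted p = 0.0506, limma) with no overlap. *Ptprcap*, a protein bound to the phosphatase CD45, was higher by 0.66 in CCl4+Rot than in vehicle (unadjusted p = 0.0375, limma) and was detected in 1 vehicle liver, no CCl4 liver and 2 CCl4+Rot livers. *Ptpn22*, a phosphatase that restrains the receptor, was present in 1 vehicle liver only and was higher in vehicle than in CCl4 by a bound of 3.09-fold (unadjusted p = 0.00589, limma).

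Of the 23 measured T cell lineage and cytokine genes, 10 were present on no array, among them *Gata3*, *Il2*, *Il4* and *Il10*. *Il2rg*, the common gamma chain of several interleukin receptors, was 7.57, 6.91 and 7.24 in vehicle, 7.73, 8.29 and 8.56 in CCl4 and 8.22, 7.94 and 8.57 in CCl4+Rot. It was wholly above vehicle in CCl4 and in CCl4+Rot, by 0.96 and 1.01 (unadjusted p = 0.0121 and 0.00962, limma).

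The NK receptor list had 17 measured genes, of which 9 were present on no array, including *Ncr1* and *Klrk1*. *Tyrobp*, the signalling adaptor DAP12 of NK and myeloid cells, was wholly higher than vehicle in CCl4 by 0.75 and in CCl4+Rot by 0.78 (unadjusted p = 0.0141 and 0.0117, limma). *Klre1*, a lectin-like NK receptor, was detected in 1 vehicle liver, 1 CCl4 liver and no CCl4+Rot liver, with signals of 4.68, 4.28 and 4.85, then 4.26, 5.09 and 6.18, then 2.93, 3.07 and 2.55. Its signal in CCl4 exceeded that in CCl4+Rot by a bound of 3.42-fold (unadjusted p = 0.0011, limma). The highest value, 6.18, was that of CCl4 replicate 3 and was called absent. CCl4+Rot minus CCl4 was -2.33 on the log2 scale with that array and -1.83 without it.

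Among the 18 measured cytotoxic effectors, 12 were above 0 in CCl4 minus vehicle (10003 of 16292 over all genes), with a list median of 0.23 (0.13 over all genes). None was wholly higher (12.1% of all genes), and 2, *Ccl5* and the undetected *Gzmm*, were wholly lower (8.45%). Leaving out CCl4 replicate 3, the median was -0.05, with 1 wholly higher (18.7% of all genes) and 5 wholly lower (14.9%). *Ccl5*, a T and NK cell chemokine that attracts other leukocytes, had signals of 9.93, 9.47 and 9.81 in vehicle, 8.67, 9.01 and 8.83 in CCl4 and 9.62, 9.89 and 9.36 in CCl4+Rot. The CCl4 livers lay wholly below both other groups, by 0.90 against vehicle and 0.79 against CCl4+Rot (log2 differences of -0.90 and 0.79 as coded, unadjusted p = 0.00325 and 0.00668, adjusted p = 0.23 and 0.65, limma). *Gzma*, which encodes granzyme A, was detected in all livers at 7.93, 7.60 and 7.76 in vehicle, 6.19, 6.01 and 7.63 in CCl4 and 7.47, 7.68 and 7.01 in CCl4+Rot.

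CCl4 replicate 3 was again the exception: in the 2 other CCl4 livers *Gzma* was below every other liver, and the difference from vehicle was -1.16 with it (unadjusted p = 0.0278, adjusted p = 0.35, limma) and -1.67 without it. *Srgn*, the granule proteoglycan, was wholly higher in CCl4+Rot than in both other groups, by 0.41 against CCl4 and 0.58 against vehicle (unadjusted p = 0.0412 and 0.00915, limma). *Nkg7*, a granule membrane protein, was detected in 2 CCl4+Rot livers and in none of the others. It was higher in CCl4+Rot than in vehicle by a bound of 1.93-fold (unadjusted p = 0.0874, limma).

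Chemokines that draw T cells into tissue differed among themselves. *Cxcl9*, an interferon-induced ligand of CXCR3, was 9.81, 10.14 and 10.13 in vehicle, 7.71, 8.26 and 8.85 in CCl4 and 8.56, 8.38 and 9.19 in CCl4+Rot. It was wholly below vehicle in both CCl4 groups (log2 differences of -1.75 and -1.32, unadjusted p = 0.000948 and 0.00485, adjusted p = 0.20 and 0.31, limma). *Ccl21*, a lymphoid chemokine for cells with CCR7, was wholly above vehicle, with 8.26, 8.11 and 7.95 in vehicle, 9.60, 11.42 and 9.82 in CCl4 and 10.94, 10.56 and 10.71 in CCl4+Rot. The differences were 2.17 (4.51-fold) and 2.63 (6.19-fold), with unadjusted p = 0.00154 and 0.000478 (limma). *Cxcl16*, the ligand of CXCR6, was higher than vehicle by 1.14 in CCl4 and 1.25 in CCl4+Rot (unadjusted p = 0.00302 and 0.00183, limma), also without overlap. None of the 11 chemokines measured was called.

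**Figure D4:**
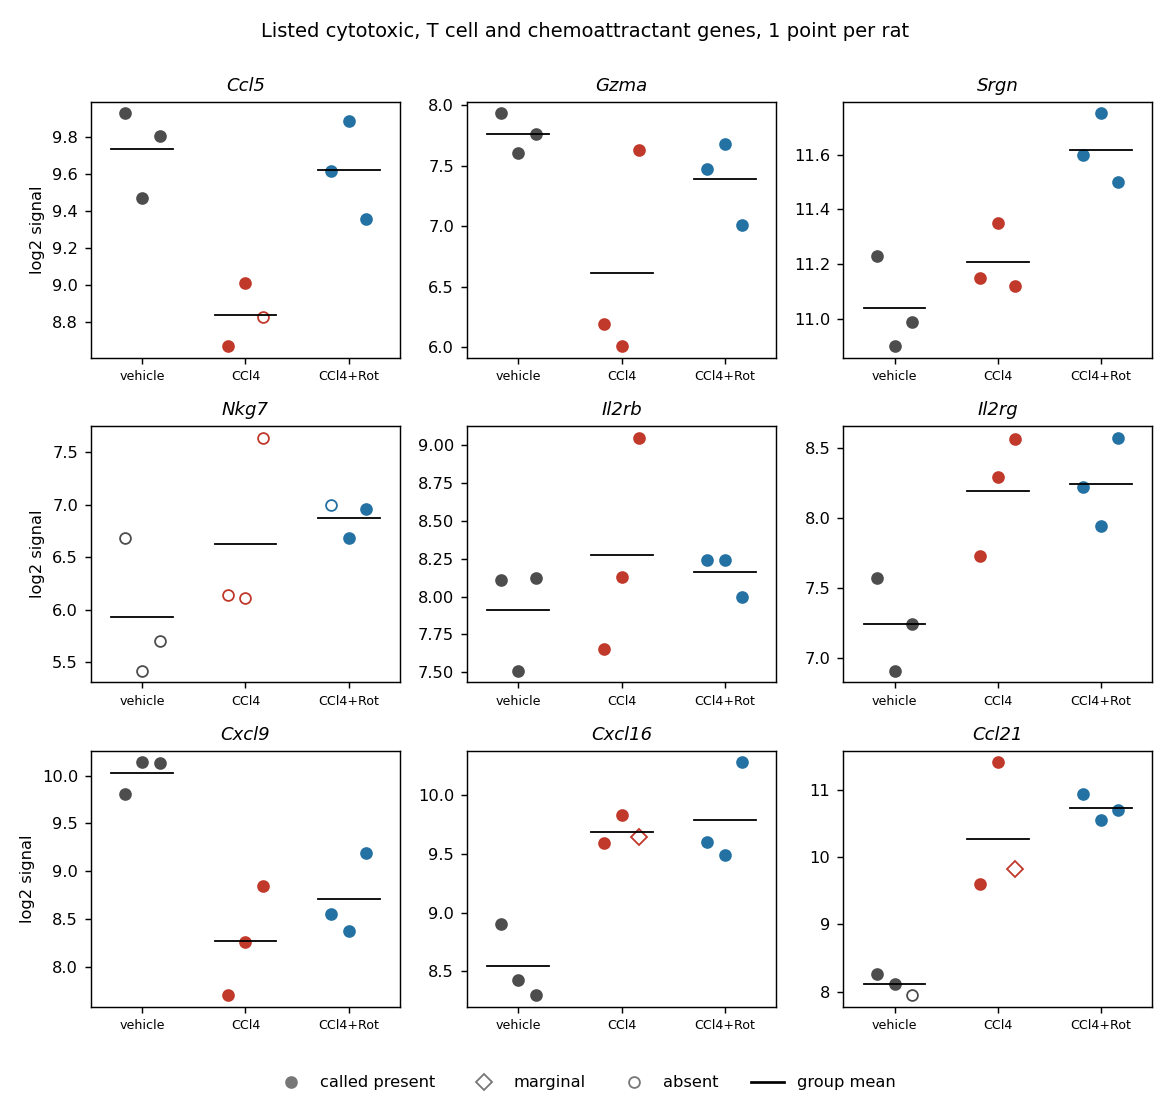
Log2 signal of 9 listed genes on each array, 1 point per rat, by group, with a separate scale in each panel that does not start at 0. Filled points were called present, diamonds marginal and open circles absent, and lines are group means (n = 3). *Ccl5* is lowest in all 3 CCl4 livers, *Cxcl9* is lower and *Il2rg*, *Cxcl16* and *Ccl21* higher than vehicle in both groups given CCl4.

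Markers of other cells were read on the same arrays. Of 8 pan-leukocyte genes, 6 were wholly higher in CCl4+Rot than in vehicle (15.9% of all genes) and 4 in CCl4 than in vehicle (12.1%). *Cd52*, present on no array, went the other way and was wholly lower in CCl4+Rot than in both other groups, with log2 differences of -1.63 from vehicle and -1.31 from CCl4 (unadjusted p = 0.00751 and 0.0207, limma). *Ptprc* (CD45), the leukocyte common antigen, was 10.26, 9.42 and 9.45 in vehicle, 9.81, 10.50 and 10.32 in CCl4 and 10.88, 10.44 and 11.12 in CCl4+Rot. The summed linear signal of the pan-leukocyte list was 4304 to 6719 in vehicle, 6672 to 9531 in CCl4 and 8773 to 10866 in CCl4+Rot. That of 9 macrophage genes, all detected in every liver with *Clec4f* the brightest, was 19049 to 25569, 18706 to 25382 and 25869 to 30648, with the lowest value in CCl4 replicate 3. That of the 10 members was 847 to 1139, 607 to 1977 and 1139 to 1477, with the highest value in CCl4 replicate 3.

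Mast cell genes were wholly higher in CCl4+Rot than in vehicle for 3 of 8 (15.9% of all genes), with *Cpa3* the brightest and *Tpsab1*, *Tpsb2* and *Kit* present on no array, and their summed signal was 588 to 715, 890 to 1878 and 1158 to 2076. For 5 neutrophil genes, led by *Lcn2*, with *Cxcr2* present on no array, the sums were 666 to 1578, 1410 to 5659 and 2573 to 6835. The highest sums in CCl4 (replicate 2) and CCl4+Rot (replicate 6) came mostly from *Lcn2*. Its log2 signals there were 12.18 and 12.27, against 9.36 and 10.4 for *S100a9*, the next brightest. For 5 B and plasma cell genes, led by *Igj*, the sums were 596 to 871, 1163 to 1847 and 1232 to 1605. Stellate cell and myofibroblast genes were wholly higher than vehicle in 6 of 8 in CCl4 (12.1% of all genes) and 7 of 8 in CCl4+Rot (15.9%), led by *Col3a1*, with sums of 7654 to 12935, 18732 to 32669 and 27969 to 35084. *Acta2* was the exception under rottlerin, with a mean log2 signal of 6.59 for the CCl4+Rot livers against 6.67 for the vehicle livers, which overlapped. It was wholly lower in CCl4+Rot than in CCl4 (log2 difference -0.80, unadjusted p = 0.0817, limma; -0.39 without CCl4 replicate 3). Its probe set also names *Actc1*. Hepatocyte genes summed to 215481 to 240088, 161142 to 237989 and 224570 to 247647. The value of 161142 was that of CCl4 replicate 3, and CCl4 replicates 1 and 2 had 233721 and 237989. No gene of these lists was called, and the part of these cell types in the T and NK values was not tested.

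Among the 5 genes whose pattern was closest to that of the 4 members detected on at least 5 arrays (*Cd3g*, *Cd5*, *Gzmb* and *Klrd1*) were *Eid2b*, *Fam101b*, *Arhgef3* and *Il2rb*. Their 9 centred log2 signals differed from the members' mean profile by 0.146, 0.163, 0.167 and 0.180 on average, out of 10643 genes compared. *Il2rb*, the beta chain of the interleukin 2 and 15 receptors on T and NK cells, was detected in all livers at 8.11, 7.51 and 8.12 in vehicle, 7.65, 8.13 and 9.05 in CCl4 and 8.24, 8.24 and 8.0 in CCl4+Rot. The members' profile itself was highest in CCl4 replicate 3, at 0.99 above its mean, and lowest in CCl4 replicate 1, at -0.94, which are arrays of the same group.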

How the data were processed

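Total RNA from frozen liver was hybridised as biotin-labelled cRNA, 1 array per rat. The authors deposited log2 signals and detection calls for 31099 probe sets per array; MAS5 and affy are named in the submitters' processing notes, without versions. On every array the antilogs average 500.0 after 2% trimming, which shows scaling to 1 mean, and their quantiles differ between arrays. The genome build behind the table is not given in the sources used here, so only chromosomes are given from it. After 57 control probe sets were left out, 31042 were fitted with limma 3.58.1 (R 4.3.3) over all 9 arrays with 3 group means and no covariate. P-values were Benjamini-Hochberg adjusted over all probe sets, and a call needed an adjusted p below 0.05 and 1.5-fold, the fold threshold of the methods. Nothing says how the rats were housed or processed together, so a difference in housing or processing cannot be told apart from one of treatment. The p-values set each group difference against the spread between livers within groups, moderated over all probe sets. The number of arrays limits the precision.

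Each gene was read by its brightest probe set, splitting symbols where a probe set names several. A gene present on no array of either group has no fold. A gene detected in one of the groups has a bound, with each signal of the other raised to at least the lowest present signal of its array. Where no signal needed raising, the bound equals the ratio from the mean log2 signals. A bound does not allow for the spread between livers, so it is not a minimum fold. The members and lists were chosen with earlier results of these data known. Named besides the members were, per list and comparison, the genes called or otherwise taken from the 3 with the smallest unadjusted p among those detected, the brightest marker of each list, markers detected on no array, and the 5 genes nearest the profile of the detected members. Genes selected by these rules that are not reported here are left out of the text. *Cd4*, *Cd8b*, *Cd28*, *Gata3*, *Il2*, *Il4*, *Il10*, *Ncr1* and *Klrk1*, the genes named among the 25 that did not overlap, *Gzmm*, *Ptprc* and *Il2rb* in each group were named after their values were seen. The fits were tested on simulated data. Alternatives were other scalings, filters, variance models (statmod 1.5.0), the methods' t-test, fold thresholds, probe set choices, a replicate block and each array left out.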

Additional observations from a re-analysis of the deposited data

How the results depend on the processing

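No member was called under any alternative except the methods' t-test without adjustment, which called 1 (*Cd3g*, CCl4+Rot minus vehicle, 0.81). For CCl4 minus vehicle the called probe sets were 0 in the main setting, 4 without the 30% dimmest, 78 when present on at least 3 arrays, 348 with a trend and robust variance, 4 with low signals raised and 1774 with the unadjusted t-test. For CCl4+Rot minus CCl4 the 1 called became 0 with quantile normalization, without the dimmest, when present on at least 3 arrays, with only the groups compared and with the adjusted t-test, and 851 with the unadjusted t-test. For CCl4+Rot minus vehicle the 8 called became 3 with quantile normalization, 2 with median centring, 22 without the dimmest, 63 when present on at least 3 arrays, 1 with only the groups compared, 241 with a trend and robust variance, 73 with array weights, 5 with low signals raised, 0 with the adjusted t-test and 2126 with the unadjusted one. With 1 array left out the counts ran from 0 to 0, 0 to 2 and 0 to 24 in these comparisons. The causes were not tested.

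Of the pathway genes, 0 in the main setting, the calls for CCl4 minus vehicle were 1 when present on at least 3 arrays, 2 (*Ccl5* among them) with a trend and robust variance and 9 with the unadjusted t-test. For CCl4+Rot minus CCl4 they were 5 with the unadjusted t-test. For CCl4+Rot minus vehicle they were 1 with a trend and robust variance, 1 (*Runx3*, present on no array) with array weights and 11 with the unadjusted t-test. No pathway gene or member was called with 1 array left out, in a range of 0 to 0.

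Members whose groups do not overlap were, for CCl4 and vehicle, 2 with quantile normalization, 1 with median centring, 1 with probe sets averaged per gene and 0 to 4 with 1 array left out. For CCl4+Rot and CCl4 they were 1 with quantile normalization and 0 to 3 with 1 array left out. For CCl4+Rot and vehicle they were 2 with quantile normalization, 2 with median centring and 1 to 4 with 1 array left out. The median log2 difference of the members ran from -0.42 to 0.71, from -0.18 to 0.69 and from 0.26 to 0.65 with 1 array left out.

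Reversed directions were *Cd5* in CCl4 minus vehicle at -0.32 with quantile normalization, -0.22 with median centring, -0.11 without vehicle replicate 3 and -0.49 without CCl4 replicate 3, and in CCl4+Rot minus CCl4 at -0.37 without CCl4 replicate 1. *Gzmb* in CCl4 minus vehicle, -0.08, reversed to 0.51, 0.21 and 0.06 without CCl4 replicate 1, CCl4 replicate 2 and vehicle replicate 3. *Cd3e* reversed to -0.36 without CCl4 replicate 3 in CCl4 minus vehicle and to 0.17 with the mean of its probe sets in CCl4+Rot minus vehicle. *Klrd1* in CCl4 minus vehicle reversed to 0.09, 0.05 and 0.04 without vehicle replicate 3, CCl4 replicate 1 and CCl4 replicate 2, and in CCl4+Rot minus vehicle to 0.09 without vehicle replicate 3. With 1 array left out, *Cd3e* ran from -0.36 to 1.22, *Cd5* from -0.49 to 0.83 and *Klrd1* from -0.61 to 0.09 and *Gzmb* from -0.98 to 0.51 in CCl4 minus vehicle, *Cd5* from -0.37 to 0.95 in CCl4+Rot minus CCl4 and *Klrd1* from -0.38 to 0.09 in CCl4+Rot minus vehicle.

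Same-numbered rats are separate animals and were not treated as pairs. Their deviations from the group means correlated at -0.00466, -0.0125 and -0.0896, the last with CCl4 replicate 3. So few pairs cannot show whether the numbers mark rats processed together. With the number as a replicate block (consensus correlation -0.0327) 0, 1 and 8 probe sets and no member were called, and no call changed.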
